A study of Rattus norvegicus with 13 samples.

Results

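Kinesin motor genes were examined in rat mammary epithelial cells (MEC) of rats inside and past the window of susceptibility (WOS), the developmental period in which the mammary gland is most prone to carcinogen-induced cancer. Members were chosen by gene symbol alone: numbered *Kif* genes, *Kifc1* to *Kifc3*, the kinesin-associated subunit *Kifap3* and the kinesin light chains *Klc1* to *Klc4*. The rule found 40 of the 14790 genes in the table, of which 12 act on the mitotic spindle or in cytokinesis, 20 move cargo and 8 do neither as their main known role (cilia, signalling or control of microtubule ends). *Kif2b* and *Kif4b*, 2 further mitotic kinesins, were not analysed here.

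RNA was sequenced from MEC of 6 Wistar-Furth rats aged 6 weeks (within WOS) and 7 aged 10 weeks (outside WOS), with 1 library per rat. Wistar-Furth is an inbred, mammary cancer susceptible strain, and the labels give no treatment and no engineered allele for any rat. The cells were ductal fragments left on a nylon filter after collagenase digestion of the abdominal and inguinal glands, so they were enriched for epithelium, were not sorted and can hold stromal and immune cells. Values are the normalized counts of the table, and a log2 fold change is the mean of log2(normalized count + 1) at 6 weeks minus that at 10 weeks.

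Kinesins are motor proteins that walk along microtubules, using ATP. The mitotic members push spindle poles apart, move and align chromosomes, shorten microtubule ends and build the midzone on which a dividing cell splits, and many of them are made mainly in late S, G2 and M phase. The transport members carry vesicles, organelles, mRNA and ciliary cargo in cells whether or not they divide. The mammary epithelium proliferates as ducts elongate during puberty and slows as the gland matures.

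Promoter sequence was the property of these genes that could be read without using any expression value. Of the 40 members, 32 had a promoter window in RefSeq (rat build GRCr8), running from 250 bases before to 50 bases after the annotated start, and 11 of these were mitotic. The windows were searched on both strands for the cell cycle genes homology region (CHR, TTTGAA or TTTAAA), the CCAAT box (CCAAT) and an E2F site (TTCGCGC or TTGGCGC). The CHR and CCAAT box are known from promoters of G2/M genes and are bound by the DREAM and MuvB complexes and by NF-Y. The 150 bases around the start are given for 6 mitotic members that hold a CHR, with matches to the CHR and to the CCAAT box (ATTGG on the opposite strand) in capitals. The stretches run from 130 bases before to 20 bases after the start, in GRCr8, and lie for *Kif4a* at chrX:69761753-69761902 on the plus strand, *Kif11* at chr1:244536737-244536886 on the plus strand, *Kif22* at chr1:191080859-191081008 on the minus strand, *Kifc1* at chr20:5000799-5000948 on the plus strand, *Kif2c* at chr5:135899193-135899342 on the minus strand and *Kif23* at chr8:71320565-71320714 on the minus strand.
Kif4a: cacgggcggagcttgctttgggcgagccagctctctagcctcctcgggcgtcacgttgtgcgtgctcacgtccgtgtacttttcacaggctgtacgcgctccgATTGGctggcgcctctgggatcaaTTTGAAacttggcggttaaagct
Kif11: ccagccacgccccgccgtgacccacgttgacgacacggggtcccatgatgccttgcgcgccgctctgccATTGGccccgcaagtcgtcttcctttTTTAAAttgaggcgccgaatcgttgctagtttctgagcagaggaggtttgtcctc
Kif22: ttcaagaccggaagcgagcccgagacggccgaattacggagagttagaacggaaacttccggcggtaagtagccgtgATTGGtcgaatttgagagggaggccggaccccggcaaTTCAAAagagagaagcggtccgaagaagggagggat
Kifc1: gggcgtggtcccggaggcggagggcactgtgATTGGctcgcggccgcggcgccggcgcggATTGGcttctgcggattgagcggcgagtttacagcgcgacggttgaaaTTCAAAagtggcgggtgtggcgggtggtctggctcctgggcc
Kif2c: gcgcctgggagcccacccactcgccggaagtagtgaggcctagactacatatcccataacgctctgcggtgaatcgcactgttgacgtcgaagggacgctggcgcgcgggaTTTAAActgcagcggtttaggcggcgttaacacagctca
Kif23: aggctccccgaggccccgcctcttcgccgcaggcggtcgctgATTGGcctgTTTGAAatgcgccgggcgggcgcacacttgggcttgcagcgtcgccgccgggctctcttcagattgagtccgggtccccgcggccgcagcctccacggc

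A CHR was present in the windows of 9 of 11 mitotic members (81.8%), in 0 of 16 transport members and in 1 of 5 other members, *Kif26b*. For comparison, 20.4% of the 10104 genes of the table with a window held one. The CHR nearest the start began between 79 bases before it (*Kif23*) and 2 bases after it (*Kif20b*). Both a CHR and a CCAAT box were present in 7 of 11 mitotic members (63.6%), namely *Kif4a*, *Kif11*, *Kif20a*, *Kif20b*, *Kif22*, *Kif23* and *Kifc1*, in 0 of 16 transport members and in 8.84% of all windowed genes of the table. *Kif2c* and *Kif15* held a CHR without a CCAAT box, and a further annotated window of *Kif2c* held no CHR. The E2F letters were found in 2 of 11 mitotic members (*Kif15* and *Kif18a*), in 2 of 16 transport members and in 7.30% of windowed genes. The table's own location column, whose source is not given, placed 6 of 12 mitotic members in the nucleus, 0 of 20 transport members and 1 of 8 others (3813 of all 14790 genes), and gave no compartment for 5, 11 and 6 of them.

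**Figure D1:**
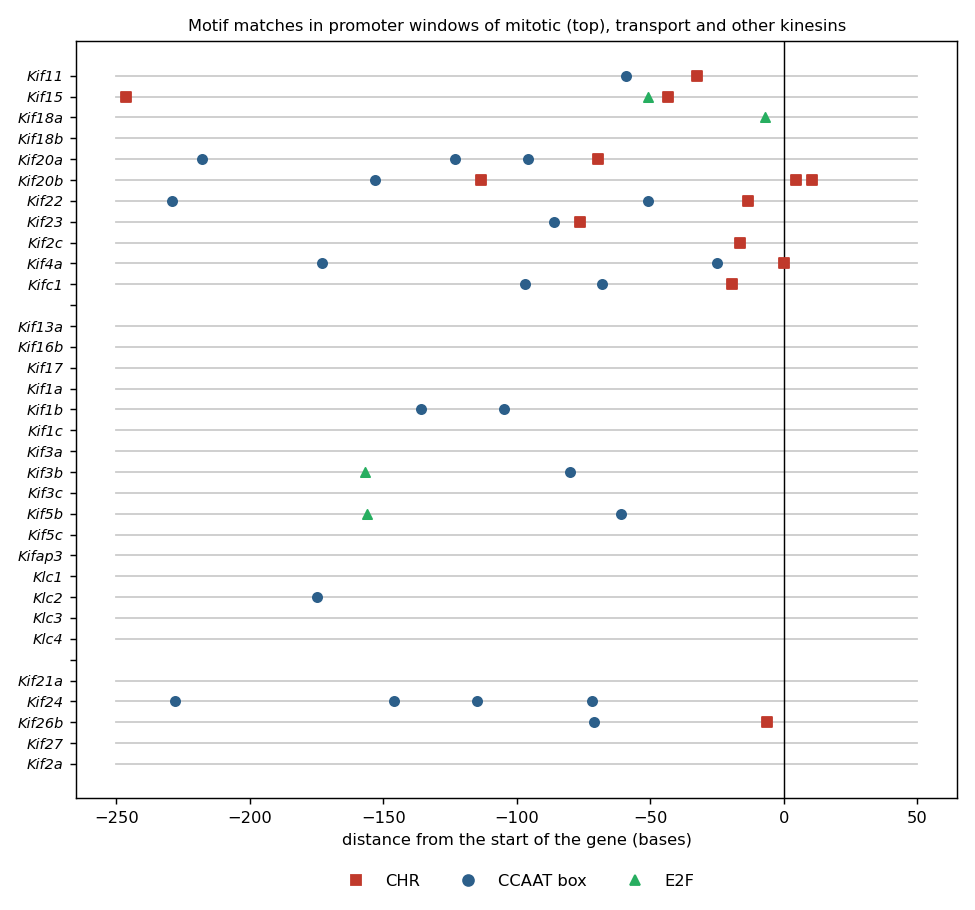
Positions of motif matches in the promoter windows of 32 kinesin genes, with the distance from the annotated start in bases on the x axis and a grey line for each gene. Where a gene had several windows, the one with the most CHR matches is drawn, so the *Kif2c* window without a CHR is left out. Squares mark the CHR, circles the CCAAT box and triangles the E2F letters, and squares stand on 9 of 11 mitotic lines and on no transport line.

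The windows without a CHR are shown for contrast by both mitotic members that lacked it, *Kif18a* and *Kif18b*, and by *Kif16b*, the transport member with the smallest p in the comparison of ages. These stretches lie, in GRCr8, for *Kif18a* at chr3:116218877-116219026 on the plus strand, *Kif18b* at chr10:88389672-88389821 on the minus strand and *Kif16b* at chr3:150707566-150707715 on the minus strand.
Kif18a: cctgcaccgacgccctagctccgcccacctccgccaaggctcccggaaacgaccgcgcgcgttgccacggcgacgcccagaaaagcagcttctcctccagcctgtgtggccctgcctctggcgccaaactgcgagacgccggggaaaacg
Kif18b: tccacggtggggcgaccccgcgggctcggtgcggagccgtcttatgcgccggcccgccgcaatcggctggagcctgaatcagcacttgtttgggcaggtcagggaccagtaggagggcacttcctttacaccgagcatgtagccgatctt
Kif16b: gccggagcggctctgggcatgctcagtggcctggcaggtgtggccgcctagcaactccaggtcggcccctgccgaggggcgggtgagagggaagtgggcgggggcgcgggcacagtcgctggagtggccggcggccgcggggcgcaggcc
A match is a match of letters and no measure of binding, and the start used in these cells was not measured.

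The first comparison asked which mitotic kinesins differed in MEC between the ages. Of 12 mitotic members, 11 were higher at 6 weeks (limma, adjusted p below the threshold of 0.05) and 0 were higher at 10 weeks, at an unadjusted p as well. Over all genes tested, 8.71% of genes passed as higher at 6 weeks, and 3.83% passed with a log2 fold change above 1, as these 11 did. The median log2 fold change of the 12 was 2.61, against 0.028 over all genes, and the values ran from 0.84 to 3.13. In 8 of the 12 every 6-week-old rat was above every 10-week-old rat, a pattern seen in 3.29% of all genes. The summed mitotic kinesin level was 1195 to 2328 normalized counts per rat at 6 weeks and 208 to 659 at 10 weeks. Since these are bulk libraries, fewer cells of a type and less RNA per cell cannot be told apart.

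**Figure D2:**
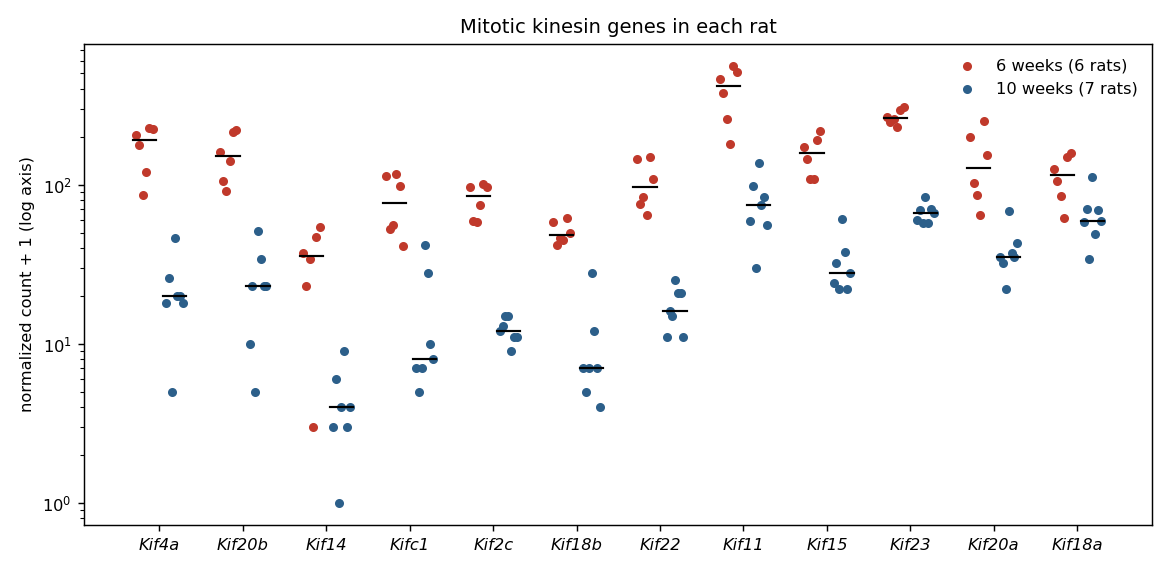
Normalized counts plus 1 of the 12 mitotic kinesin genes on a log axis, each point a rat (6 rats at 6 weeks in red, 7 at 10 weeks in blue) and each black line the group's median. In 8 genes the red points all lie above the blue ones, while *Kif14*, *Kifc1*, *Kif20a* and *Kif18a* overlap.

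Both chromosome-bound motors were higher at 6 weeks. *Kif4a* (ENSRNOG00000038035), a chromokinesin that also shapes the central spindle, had 85, 189.5 and 227 normalized counts (lowest, median and highest of 6 rats) at 6 weeks and 4, 19 and 45 at 10 weeks. The ages did not overlap. Its log2 fold change was 3.13 (SE 0.42, adjusted p = 0.000468), the largest of all 40 members. *Kif22*, the chromokinesin that pushes chromosome arms away from the poles, had 63, 95 and 147 at 6 weeks and 10, 15 and 24 at 10 weeks. Again the groups were separate, and the log2 fold change was 2.59 (SE 0.26, adjusted p = 0.000105).

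The motors that set up the bipolar spindle followed the same direction. *Kif11* (ENSRNOG00000056069), the motor that slides spindle poles apart, had 178, 416.5 and 556 normalized counts at 6 weeks and 29, 73 and 136 at 10 weeks. Its groups were separate, with a log2 fold change of 2.37 (SE 0.35, adjusted p = 0.000894). *Kif15*, a motor that can stand in for *Kif11* in keeping the poles apart, had 107, 157 and 217 at 6 weeks and 21, 27 and 60 at 10 weeks. Its log2 fold change of 2.32 (SE 0.26, adjusted p = 0.000182) was close to that of *Kif11*. *Kifc1*, a minus-end motor that focuses spindle poles, had 40, 76 and 115 at 6 weeks and 4, 7 and 41 at 10 weeks. Rat 81 at 10 weeks (41) was just above rat 86 at 6 weeks (40), and 5 of 6 younger rats were above all older ones. The log2 fold change of *Kifc1* was 2.70 (SE 0.49, adjusted p = 0.00335).

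Among the motors that act on microtubule ends and kinetochores, *Kif2c* and *Kif18a* were the most and the least clear of the mitotic genes in this role. *Kif2c* (ENSRNOG00000019100), the depolymerase also called MCAK that frees wrongly attached chromosomes, had 57, 84 and 100 normalized counts at 6 weeks and 8, 11 and 14 at 10 weeks. Rats of the same age differed little beside the gap between the ages, and the log2 fold change was 2.70 (SE 0.18, adjusted p = 6.25e-06). *Kif18b*, which shortens astral microtubules, had 41, 47 and 61 at 6 weeks and 3, 6 and 27 at 10 weeks. Its log2 fold change was 2.62 (SE 0.36, adjusted p = 0.000592), and its groups did not overlap. Its promoter window held none of the searched letters, and a link between letters and fold change was not tested.

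*Kif18a*, which damps chromosome oscillation at metaphase, was the mitotic member that did not pass. It had 61, 114.5 and 158 normalized counts at 6 weeks and 33, 58 and 110 at 10 weeks, and 3 of 6 younger rats lay above all older ones. The log2 fold change was 0.84 (SE 0.27, 95% interval 0.25 to 1.43, adjusted p = 0.0533). The call lay at the threshold. With 1 rat left out it was made in 2 of 13 fits, without rat 80 (adjusted p = 0.0243) and without rat 81 (adjusted p = 0.0197). It was also made with library size scaling (0.0399), at least 10 in every rat (0.038), limma-trend (0.0425) and sample quality weights (0.00154). Leaving out the 5 rats set apart below gave 0.0051. It was not made with median-ratio scaling (0.0575) or a pseudocount of 0.1 (0.0574). The adjusted p ranged from 0.00154 to 0.118 over all alternatives. The study itself describes *Kif18a* expression as significantly high within WOS.

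All 4 motors of the midzone and of cytokinesis were higher at 6 weeks, *Kif20b* and *Kif14* by more and *Kif23* and *Kif20a* by less than *Kif11*. *Kif23* (ENSRNOG00000014080), the motor subunit of centralspindlin, had 230, 260 and 304 normalized counts at 6 weeks and 56, 65 and 82 at 10 weeks. The coefficient of variation was 10.7% at 6 weeks and 14.2% at 10 weeks, both the lowest of the 12 mitotic genes. Its log2 fold change of 2.02 (SE 0.11) had the smallest adjusted p of all members (2.24e-06). *Kif20b*, which binds the midzone and takes part in abscission, had 90, 149.5 and 218 at 6 weeks and 4, 22 and 50 at 10 weeks. The groups were separate, with a log2 fold change of 2.92 (SE 0.46, adjusted p = 0.00142).

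*Kif20a*, which carries the chromosomal passenger complex to the midzone, had 63, 127 and 249 normalized counts at 6 weeks and 21, 34 and 67 at 10 weeks. Rat 80 at 6 weeks (63) lay below rat 81 at 10 weeks (67), and the log2 fold change was 1.79 (SE 0.33, adjusted p = 0.0034). *Kif14*, which recruits citron kinase to the midbody, had 2, 34.5 and 53 at 6 weeks and 0, 3 and 8 at 10 weeks. The low 6-week value was that of rat 80, and the other five were between 22 and 53, above every older rat. The log2 fold change of *Kif14* was 2.77 (SE 0.65, adjusted p = 0.0138) with all rats and 3.38 without rat 80.

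Many of these genes shared their highest and lowest rats. At 6 weeks rat 84 had the highest value in 6 of the 12 mitotic genes and rat 86 in 5, whereas rat 80 had the lowest in 7. At 10 weeks rat 81 was highest in 11 of 12 and rat 78 lowest in 8. The general proliferation genes *Mki67* and *Top2a* were also highest at 10 weeks in rat 81 (766 and 282 normalized counts), where the other six rats had 155 to 387 and 57 to 127. Without rat 81 the median log2 fold change of the mitotic list was 2.72, and 12 of 12 members passed. Since rat 81 was the highest older rat in 11 of these genes, leaving it out raises their fold changes by construction. In 13 fits that each left out 1 rat, the 11 called members passed every time.

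Libraries of both ages fell into sets that the labels do not name. The largest axis of variation within ages (28.3% of it) set rats 75 and 80 of the younger group and rats 78, 81 and 83 of the older group apart from the other eight. With those 5 rats left out, 12 of 12 mitotic members passed, with a median log2 fold change of 2.95. The 5 were picked from the variation of these same values, so leaving them out lowers the spread within ages by construction. Calls higher at 6 weeks over the whole table also rose, from 1288 to 1987, so the added pass is no separate support. Within the smaller set, where no test was made, the log2 fold changes of the mitotic genes were between 0.35 (*Kif18a*) and 2.61 (*Kif4a*).

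Genes of other cell types and of the cell cycle moved with this comparison. For scale, 8.71% of all genes were called higher at 6 weeks and 7.39% higher at 10 weeks. Of 5 fibroblast markers in the table, 3 were higher at 6 weeks (*Col1a1*, *Col3a1* and *Lum*), and the summed level of the 5 was 105230 to 220582 normalized counts per rat at 6 weeks and 18702 to 54383 at 10 weeks. Of 6 luminal epithelial markers, *Epcam* (log2 fold change -0.39) and *Cdh1* (-0.47) were higher at 10 weeks and 0 at 6 weeks, at an unadjusted p as well. The summed level of all 6 luminal markers was 36510 to 52697 at 6 weeks and 49672 to 64471 at 10 weeks. *Pdgfra* (0.13, adjusted p = 0.78) and *Dcn* (0.57, adjusted p = 0.197) were the fibroblast markers that did not pass. Of 6 proliferation genes, 5 were higher at 6 weeks (*Mki67*, *Top2a*, *Ccna2*, *Mcm2* and *Mcm6*), whereas *Pcna* had a log2 fold change of 0.12 (adjusted p = 0.548). The proportions of cell types were not measured, and the part of these marker differences in the kinesin result was not tested.

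Other marker lists gave calls in part, to be read beside the same shares of all genes. No basal epithelial, endothelial, macrophage or skeletal muscle marker passed the test, nor did *Tekt1*, the ciliated cell marker in the table. Calls were made in adipocyte (2 of 4 higher at 6 weeks), lymphocyte (1 of 3), nerve and Schwann cell (2 of 6) and mast cell markers (2 of 3 higher at 6 weeks and *Kit* higher at 10 weeks). The mast cell proteases *Cpa3* (log2 fold change 3.86) and *Cma1* (2.95) differed by more than any of the fibroblast markers. Neither overlapped between the ages (200 to 587 against 9 to 116, and 107 to 220 against 5 to 76), as in 3.29% of all genes. The summed level of the 3 mast cell markers did overlap (1766 to 2735 against 1497 to 3771). Most of that sum was *Kit*, at 1324 to 2190 at 6 weeks and 1467 to 3755 at 10 weeks. No marker was at 0 in every rat. *Krt8* and *Krt18* of the luminal epithelium were at 6486 or more and 2660 or more in every rat, so the defining luminal keratins were present in all 13 libraries.

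Genes that work with the mitotic kinesins were read from the same fit. Of 25 such partners 23 were higher at 6 weeks and 0 at 10 weeks, at an unadjusted p as well. Over all genes the shares called were 8.71% and 7.39%. The partners had a median log2 fold change of 2.45. *Cenpe*, itself a kinesin of the kinetochore that the symbol rule leaves out, had 224, 337 and 544 normalized counts at 6 weeks and 21, 56 and 104 at 10 weeks. Its groups were separate, with a log2 fold change of 2.68 (adjusted p = 0.000252). The partners with the smallest p were the checkpoint kinase *Bub1* (2.42), citron kinase *Cit* (2.27) and cyclin B1, *Ccnb1* (3.14). The exceptions were the kinase *Aurka* (0.53, adjusted p = 0.112) and the passenger scaffold *Incenp* (-0.16, adjusted p = 0.65).

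The next comparison asked whether transport kinesins moved with age as the mitotic ones did. Of 20 transport members, 1 was higher at 6 weeks (*Kif3c*) and 3 were higher at 10 weeks (*Kif1b*, *Kif13b* and *Kif16b*). Of all genes, 8.71% were higher at 6 weeks and 7.39% at 10 weeks. The median log2 fold change was 0.11, and the range was -0.64 to 0.95. The summed level of the 20 was 14267 to 16274 normalized counts per rat at 6 weeks and 15954 to 18534 at 10 weeks. At an unadjusted p under 0.05, 3 were higher at each age.

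**Figure D3:**
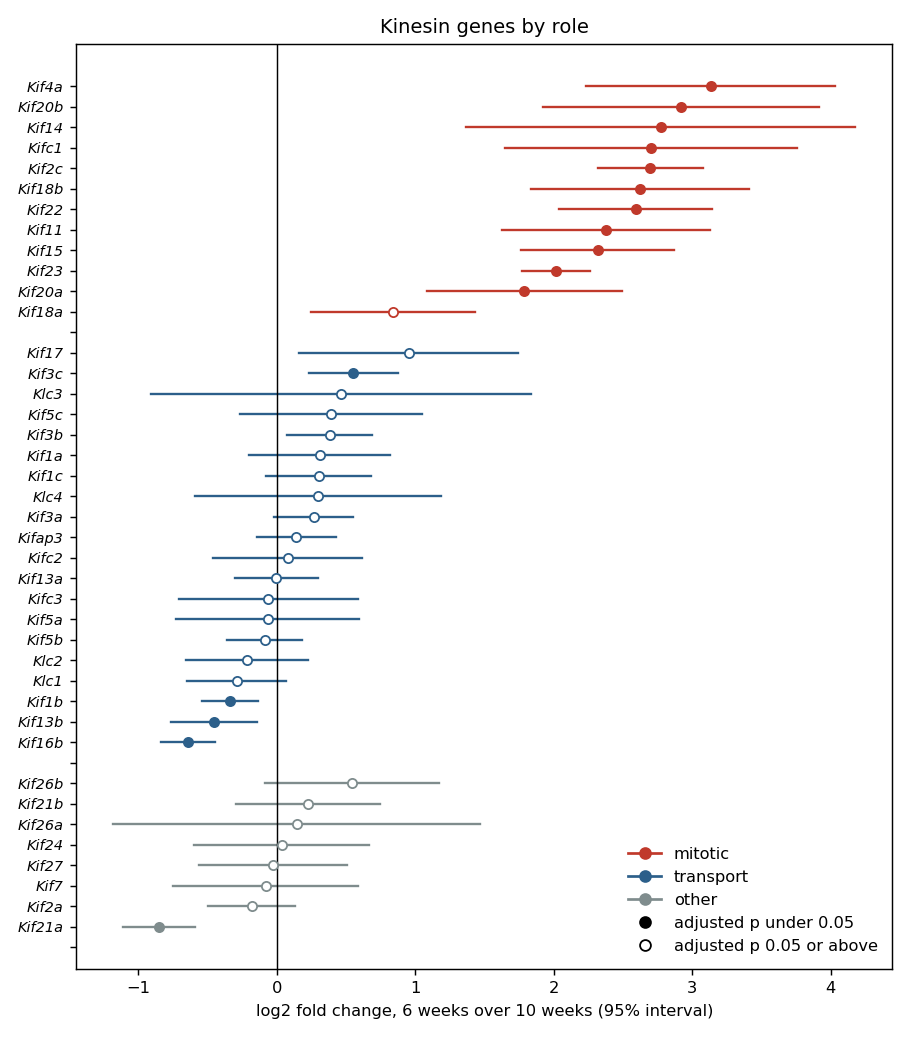
Log2 fold change of each of the 40 kinesin genes (6 weeks over 10 weeks, x axis) with its 95% interval, in red for mitotic, blue for transport and grey for other members, filled where the adjusted p was under 0.05. The red points lie between 0.84 and 3.13, and the blue and grey ones between -0.85 and 0.95.

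*Kif16b* (ENSRNOG00000004951), which carries early endosomes towards the cell edge, had 560, 634.5 and 682 normalized counts at 6 weeks and 878, 1021 and 1062 at 10 weeks. No older rat was as low as any younger one, as in 2.78% of all genes. The log2 fold change was -0.64 (SE 0.091, adjusted p = 0.000709), and the call was made in all 13 fits that left out 1 rat. Its value was -0.70 without the smaller set of rats and -0.57 within it.

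Both other transport genes that were higher at 10 weeks were close to the threshold. *Kif1b*, a carrier of mitochondria and synaptic vesicle precursors, had 4131, 5072.5 and 5344 normalized counts at 6 weeks and 5659, 6193 and 7044 at 10 weeks. The ages did not overlap, but the shift was small (log2 fold change -0.34, SE 0.095, adjusted p = 0.0309), and it passed in 7 of 13 fits that left out 1 rat. *Kif13b*, which moves signalling lipids and receptors to the membrane, had 1263, 1655.5 and 2075 at 6 weeks and 1661, 2092 and 2769 at 10 weeks. Its groups overlapped, and its log2 fold change of -0.45 (SE 0.14, adjusted p = 0.0494) passed in 2 of 13 such fits. Neither passed with library size scaling.

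*Kif3c* (ENSRNOG00000011394), an accessory motor that pairs with *Kif3a*, had 186, 231.5 and 318 normalized counts at 6 weeks and 139, 163 and 231 at 10 weeks. Rat 83 supplied the highest older value, and 3 of 6 younger rats were above all older ones. The log2 fold change was 0.55 (SE 0.15, adjusted p = 0.0265). It was lost without rat 70 or rat 74, where the adjusted p reached 0.0637. The rest of the kinesin-2 motor, which drives transport into cilia, had log2 fold changes of 0.27 (*Kif3a*), 0.38 (*Kif3b*) and 0.14 (*Kifap3*), with adjusted p values of 0.184, 0.0852 and 0.495.

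**Figure D4:**
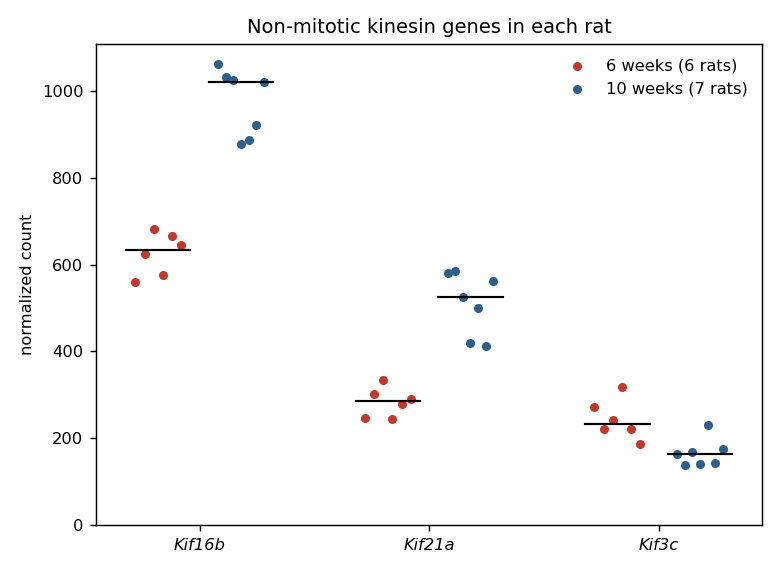
Normalized counts of *Kif16b*, *Kif21a* and *Kif3c* in each rat on a linear axis from 0 (6 rats at 6 weeks in red, 7 at 10 weeks in blue, black lines for medians). In *Kif16b* and *Kif21a* every older rat is above every younger one, and in *Kif3c* the ages overlap.

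The genes of conventional kinesin did not pass the test. *Kif5b*, the heavy chain made in most tissues, had 2230, 2838.5 and 3028 normalized counts at 6 weeks and 2372, 2970 and 3498 at 10 weeks. The groups overlapped almost fully, and the log2 fold change was -0.089 (95% interval -0.36 to 0.18). The neuronal heavy chains *Kif5a* (-0.067) and *Kif5c* (0.39) and the cargo-binding light chains *Klc1* (-0.29), *Klc2* (-0.22), *Klc3* (0.46) and *Klc4* (0.30) did not pass either. Some of their 95% intervals were wide (*Kif5c* -0.27 to 1.05, *Klc3* -0.91 to 1.84, *Klc4* -0.59 to 1.19) and do not settle whether these genes differ. The log2 fold changes of the vesicle carriers *Kif1a*, *Kif1c* and *Kif13a* were 0.31, 0.30 and -0.0049. The minus-end motors *Kifc2* and *Kifc3* had 0.078 and -0.061. *Kif17*, a dendritic and ciliary motor, had the largest value among those not called (0.95, adjusted p = 0.0946) at low counts, with 8, 11 and 27 at 6 weeks and 2, 7 and 14 at 10 weeks.

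Adaptors that couple kinesins to cargo and the opposing motor dynein were compared in the same fit. Of 18 cargo adaptors 1 was higher at 6 weeks, the JNK scaffold *Mapk8ip1* (log2 fold change 0.86, adjusted p = 0.0292), and 0 were higher at 10 weeks by limma, or 2 at an unadjusted p under 0.05. Those were *Kif1bp* (-0.27) and the mitochondrial anchor *Rhot2* (-0.40). Of 23 dynein and dynactin genes 1 was higher at 6 weeks, the dynactin subunit *Dctn6* (0.79, adjusted p = 0.0105), and 0 at 10 weeks. At an unadjusted p under 0.05, 3 were higher at 6 weeks and 2 at 10 weeks. The dynein regulators *Nde1* (0.42) and *Pafah1b1* (-0.32) had the next smallest p. The median log2 fold changes of the lists were -0.18 and 0.10. Beside these counts, 8.71% of all genes were called higher at 6 weeks and 7.39% higher at 10 weeks.

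Of the 8 other kinesins, 1 passed the test, where 16.1% of all genes passed in either direction. *Kif21a* (ENSRNOG00000014844), which limits microtubule growth at the cell cortex, had 244, 284.5 and 333 normalized counts at 6 weeks and 413, 525 and 585 at 10 weeks. The ages were separate, and the log2 fold change was -0.85 (SE 0.12, adjusted p = 0.000705), passing in all 13 fits that left out 1 rat. No member of this group was higher at 6 weeks by limma, or at an unadjusted p under 0.05. *Kif2a*, a depolymerase related to *Kif2c*, is used in mitosis and also outside it, and was placed in this list and not in the mitotic one. *Kif2a* had 323, 429 and 537 at 6 weeks and 397, 449 and 580 at 10 weeks (log2 fold change -0.18, adjusted p = 0.418). *Kif21b*, the paralog of *Kif21a*, had 71, 93 and 146 at 6 weeks and 48, 97 and 128 at 10 weeks (log2 fold change 0.23, adjusted p = 0.556).

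The log2 fold change of *Kif26b*, a kinesin without motor activity linked to non-canonical Wnt signalling and the single non-mitotic member with a CHR, was 0.54 (adjusted p = 0.219). *Kif7*, a regulator of Hedgehog signalling in the cilium, had 68, 91.5 and 125 normalized counts at 6 weeks and 49, 87 and 194 at 10 weeks (log2 fold change -0.081, adjusted p = 0.881), with older rats on both sides of the younger ones. In RefSeq it overlaps *Ticrr*, which had a log2 fold change of 1.51 (adjusted p = 0.0123). The rest were *Kif27* (-0.027), a relative of *Kif7*, *Kif24* (0.034), which limits cilium growth, and *Kif26a* (0.14). RefSeq places a gene named *Kif27l1* over *Kif27*, and the counts of *Kif27* are therefore uncertain.

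The last comparison asked whether related kinesins shifted by unequal amounts within the same rats. For 17 pairs the log2 ratio of both genes was taken in each rat, and the ages were compared by an exact permutation test (two-sided, 1716 arrangements, adjusted over the 17 pairs). The smallest p that the design allows is 0.000583. By this test 8 of 17 ratios differed between the ages. Only these 17 pairs were tested, so no share over other gene pairs stands beside this count. Each difference equals the gap between the log2 fold changes of the paired genes in the earlier fit. A pair that sets a called gene against an uncalled gene, such as *Kif2c* and *Kif2a*, therefore largely restates an earlier call. Such pairs are no separate support.

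*Kif2c* against *Kif2a* differed most. The log2 ratio was -2.44 ± 0.54 (SD, n = 6) at 6 weeks and -5.32 ± 0.39 (SD, n = 7) at 10 weeks, a difference of 2.88 (exact permutation test, adjusted p = 0.00495). All 6 younger rats were above all 7 older ones. The minus-end motors *Kifc3* and *Kifc1* gave a difference of -2.76 (exact permutation test, adjusted p = 0.00495), with single log2 fold changes of -0.061 and 2.70.

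Inside the mitotic list the shifts were also unequal in part. The ratio of *Kif18b* to *Kif18a* was 1.78 higher on the log2 scale at 6 weeks (exact permutation test, adjusted p = 0.00594), and no rat of either age overlapped. The ratio of *Kif20a* to *Kif20b* was lower at 6 weeks by a log2 difference of -1.13 (exact permutation test, adjusted p = 0.0113), and in the older rats *Kif20b* was the lower of the pair on average. The ratio of *Kif4a* to its midzone partner *Prc1* was higher at 6 weeks by 1.49 (exact permutation test, adjusted p = 0.00594). For *Kif15* and *Kif11* the difference was -0.058, for *Kif14* and *Kif11* 0.40, and for *Kif23* and its centralspindlin partner *Racgap1* -0.94. Their adjusted p values by the exact permutation test were 0.802, 0.53 and 0.0881.

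Among non-mitotic pairs, the ratio of *Kif13b* to *Kif13a* was lower in every younger rat than in any older one (difference -0.45, exact permutation test, adjusted p = 0.00594). This pair kept its rats closer than the single gene *Kif13b* did, with SDs of 0.14 and 0.20. The ratio of *Kif21b* to *Kif21a* was higher at 6 weeks by 1.08 (exact permutation test, adjusted p = 0.0066), with 5 of 6 younger rats above all older ones. *Kif1c* against *Kif1b* differed by 0.64 (exact permutation test, adjusted p = 0.0359), and this call was lost in 9 of 13 sets that left out 1 rat. The pairs *Kif3b* and *Kif3a*, *Kifap3* and *Kif3a*, *Kif5c* and *Kif5b*, *Klc2* and *Klc1*, *Klc4* and *Klc1*, and *Kif26b* and *Kif26a* did not pass, with differences between -0.13 and 0.59.

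**Figure D5:**
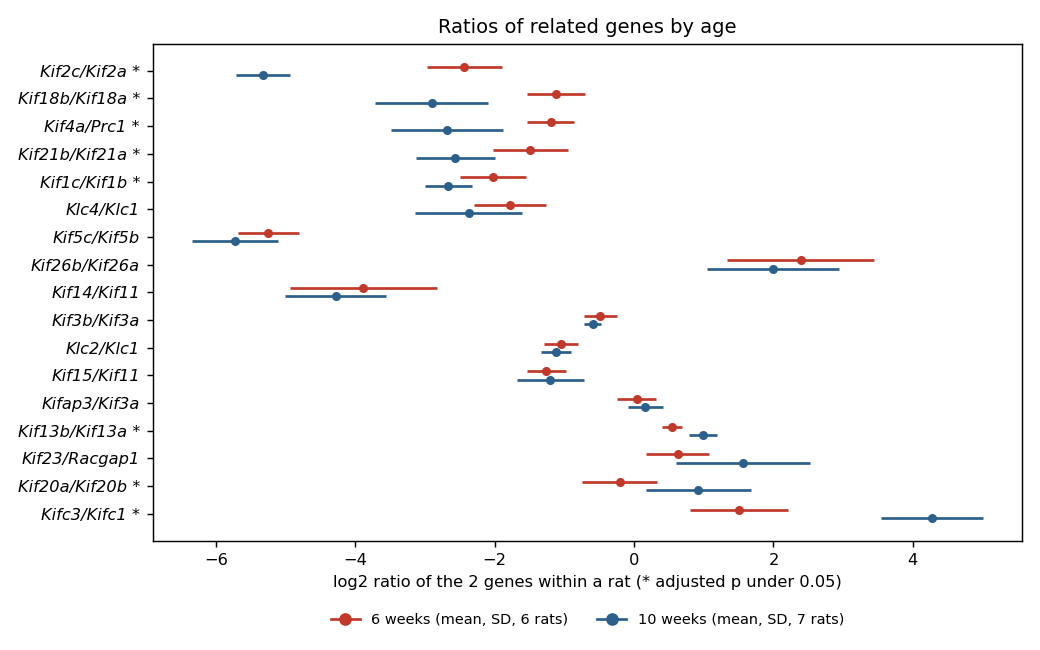
Mean log2 ratio of 17 gene pairs within a rat at 6 weeks (red, 6 rats) and 10 weeks (blue, 7 rats), with bars of 1 SD and an asterisk where the exact permutation test passed after adjustment. The ages stand farthest apart in *Kif2c*/*Kif2a* and *Kifc3*/*Kifc1*, by 2.88 and -2.76.

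Limits of counting apply to several members. In RefSeq 5 of the 12 mitotic genes overlap another protein-coding gene (*Kif4a*, *Kif11*, *Kif15*, *Kif18a* and *Kif20a*), and whether the counting used strand is not given in the sources used here. The overlapping genes were *Pdzd11*, *Ide*, *RGD1311745*, *Mettl15* and *Cdc23*, whose own log2 fold changes were -0.30, 0.17, -0.065, -0.10 and 0.15, with 0 of 5 called by limma. *Asxl2*, which overlaps *Kif3c*, had -0.085. Counting all roles, 13 members overlap a protein-coding gene. *Dimt1*, *Ercc2* and *Xrcc3*, which overlap *Kif2a*, *Klc3* and *Klc1*, had -0.25, -0.37 and -0.22 (limma, adjusted p = 0.246, 0.342 and 0.671). *Kifc2* and *Klc2* also overlap such genes, whose values are not given here.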

How the data were processed

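RNA-seq of mammary epithelial cells from 13 rats was analysed, 6 aged 6 weeks and 7 aged 10 weeks. Per the labels and the study's methods the authors counted reads with RSEM 1.2.22 (rn5 in the submitters' processing notes, which also name edgeR and DESeq2). The deposited table gives, for 14790 genes, a score per rat: a scaled count rounded to a whole number, here called a normalized count. Column totals were 13261906 to 15659533, the depth before scaling is not given in the sources used here, and 7 rats lack some whole numbers from 1 to 30, so low values are coarse. No 2 rats had identical columns, and every gene had a mean of at least 1. Since the values are scaled, limma 3.58.1 (R 4.3.3) was run on log2(normalized count + 1) over all genes without covariates, with Benjamini-Hochberg adjustment at 0.05. On data simulated at these means, 70% of 100 genes changed by a log2 of 1 and 100% of 100 changed by a log2 of 2 were called. The simulated spread between rats was capped at the median over genes, and genes of low mean were not changed. These shares therefore do not hold for genes that are noisier or lower. Gene pairs were compared by exact permutation test (Python 3.11.15, scipy 1.17.1).

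Members and lists were chosen with earlier results of these data known. Named with full values were all members with adjusted p under 0.05, all mitotic members and the 3 largest changes of each other list with a mean of at least 100, and *Cenpe* with the 3 partners of smallest p from each list. *Kif5b*, *Kif17*, *Kif21b* and the overlapping genes were named in addition after their values were seen. All 40 members matched RefSeq, whose promoters (GRCr8) were searched for fixed letters. Alternatives were other scalings (median-ratio, library size), a pseudocount of 0.1, at least 10 in every rat, no minimum, limma-trend, sample quality weights, each rat left out, and a smaller set of 5 rats left out. Nothing in the labels says that a replicate number is shared between ages. The table also holds the authors' own edgeR comparison of the ages, as deposited log2 fold changes, p-values and their -log10, which were not used.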

Additional observations from a re-analysis of the deposited data

Results flagged for a closer look

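In 3 of 80 groups (40 genes at 2 ages) 1 rat stood apart from the rest of its age by Dixon's test, a test that flags about 1 in 20 groups by chance. *Kif18b* at 10 weeks was 27 normalized counts in rat 81, where the nearest rat had 11. *Kif15* at 10 weeks was 60 in the same rat, where the nearest had 37. *Kif3c* at 10 weeks was 231 in rat 83, where the nearest had 175. Without rat 81 both mitotic genes passed the test, and without rat 83 *Kif3c* passed it.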

How the results depend on the processing

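No paired analysis was possible because the ages share no replicate number. The 11 mitotic calls were 6 of 6 tested when genes below 10 in any rat were dropped, and 11 to 12 when 1 rat was left out. Transport calls higher at 6 weeks were 3 with sample quality weights, 2 without the smaller set of rats and 0 to 1 with 1 rat left out. Those higher at 10 weeks were 1 with library size scaling and 1 to 3 with 1 rat left out. Over the whole table, calls higher at 6 weeks were 3009 with weights, 1987 without the smaller set and 803 to 1461 with 1 rat left out, and those higher at 10 weeks were 2638 with weights and 608 to 1219. Pairs past the threshold numbered 7 to 9 with 1 rat left out. The cause of these shifts was not tested.

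Some genes that were not called changed sign. With weights *Kif24* was -0.31 and *Kif7* 0.016 (log2 fold change). With library size scaling *Kif27* was 0.017 and *Kif13a* 0.0425. Without the smaller set *Kif24* was -0.42, *Kif7* 0.26, *Kif5c* -0.12, *Kifap3* -0.00038 and *Kifc3* 0.13. With 1 rat left out the ranges were -0.19 to 0.48 (*Kif26a*), -0.14 to 0.20 (*Kif24*), -0.15 to 0.088 (*Kif27*), -0.25 to 0.081 (*Kif7*), -0.061 to 0.20 (*Kifc2*), -0.080 to 0.065 (*Kif13a*), -0.22 to 0.078 (*Kifc3*) and -0.23 to 0.13 (*Kif5a*). The ratio of *Klc2* to *Klc1* and that of *Kif15* to *Kif11* turned sign too, at -0.0117 to 0.13 and -0.18 to 0.068. Depth limits 8 members with normalized counts under 10 in some rats (*Kif4a*, *Kif20b*, *Kif14*, *Kifc1*, *Kif2c*, *Kif18b*, *Kif17* and *Kif26a*), and without such genes the mitotic median was 2.17.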
